A study of Mus musculus with 159 samples.

Results

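Myl9, Ccn2, Actn1, Actn4, Flna and Vim are 6 of the 607 genes in a table of spatially resolved expression from 4 mouse livers. They encode contractile, cytoskeletal and mechanosensing proteins, and all 6 were found in the table by symbol. They were chosen by their levels in desmin-positive segments of MARCO-rich and MARCO-poor areas, set against collagen chains. Of the 6, 2 were higher in MARCO-rich areas in every liver. Of 11 collagen chains, 6 were lower there in every liver. Of all 607 genes, 9.56% were higher and 12.9% lower there in every liver. The livers came from C57BL/6 mice of either sex, 8 weeks old at the start, and per the study's methods every mouse was given carbon tetrachloride (CCl4) by injection for 6 weeks. Of these mice, 2 also received MARCO+ bone marrow-derived macrophages and 2 received saline. The deposited labels instead call livers 1 and 3 "treated CCl4" and livers 2 and 4 "control", and nothing in the sources used here says which liver received cells. The labels are therefore used only as labels.

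Regions of interest (ROIs) were drawn by hand on stained sections and classed as MarcoHi or MarcoLo by their MARCO signal. Each ROI was divided by staining into Des+ segments (desmin, marking hepatic stellate cells), Marco+IBA+ and Marco-IBA+ segments (macrophages with and without MARCO) and Else (area negative for all these stains). There were 41 Des+ segments, 45 Marco+IBA+, 24 Marco-IBA+ and 49 Else, and every liver held every type. The summed counts of a Des+ segment lay between 1448 and 16715, against 3106 to 27341 in Marco+IBA+, 1065 to 4457 in Marco-IBA+ and 75571 to 448875 in Else. No value was 0, and the lowest count in a Marco-IBA+ segment was 1, at which a median of 47.4% of the genes stood. A single count was worth a median value of 3.72 in Des+, 1.68 in Marco+IBA+, 8.69 in Marco-IBA+ and 0.0687 in Else.

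Myosin II moves along actin filaments and is switched on by phosphorylation of its regulatory light chain, which Myl9 encodes. Alpha-actinins (Actn1, Actn4) and filamin A (Flna) cross-link actin and tie it to integrin adhesions, and vimentin (Vim) forms intermediate filaments of mesenchymal cells and leukocytes. Tension on this network releases YAP/TAZ and MRTF to the nucleus, where they act with TEAD factors and SRF on genes such as Ccn2, which encodes a secreted matricellular protein. In injured liver, stellate cells take on contractile features while they deposit collagen.

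The genes lie on different chromosomes of GRCm38.p6, apart from Vim (chr2:13574311-13582826) and Myl9 (chr2:156775408-156781657). Ccn2 is at chr10:24595442-24598683, Actn1 at chr12:80167542-80260420, Actn4 at chr7:28893248-28962351 and Flna at chrX:74223461-74249854. RefSeq promoter entries matched 5 of the 6 genes, not Ccn2. Because TEAD factors read the MCAT element (CATTCC) and SRF the CArG box, both strands of the 250 bases before each start were searched for them. An MCAT match was found for 2 of the 5 genes, against 12.6% of 32851 promoters, and a CArG box match for 1 of 5, against 1.47%. The matched stretches follow, with the motif in capitals, 161 (Myl9), 216 (Actn4) and 146 (Flna) bases before the start of the RefSeq entry. For Flna this stretch lies inside the span of the gene. A match is only a description of letters.
Myl9, CArG box, chr2:156775258-156775357, plus strand: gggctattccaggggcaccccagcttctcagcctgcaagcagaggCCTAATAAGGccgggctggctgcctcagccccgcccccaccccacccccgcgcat
Actn4, MCAT, chr7:28962483-28962582, minus strand: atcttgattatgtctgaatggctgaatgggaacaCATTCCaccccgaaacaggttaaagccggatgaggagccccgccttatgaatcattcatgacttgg
Flna, MCAT, chrX:74246626-74246725, minus strand: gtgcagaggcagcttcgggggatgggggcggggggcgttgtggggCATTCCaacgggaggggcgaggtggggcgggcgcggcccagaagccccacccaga
No match to either motif was found in the windows of Actn1 and Vim.

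The table's genes were preselected by the authors as stellate cell genes, and each segment was scaled to the same 75th percentile over them. A level below is such a Q3-normalized value, averaged over the segments of a liver, and it is relative to the other genes of the segment. In tissue segments fewer cells of a type and less RNA per cell cannot be told apart. The labels of the segments were checked against markers. The 12 stellate cell markers summed to 360 to 435 across livers in Des+ segments and 85.7 to 113 in Else, with 150 to 192 in Marco+IBA+ and 191 to 261 in Marco-IBA+. Marco ran from 179 to 1043 in Marco+IBA+ segments against 7.46 to 24.5 in Des+. Des itself was not highest in Des+ segments: its mean level was 7.83 ± 1.74 (SD, n = 4 livers) there, 12.3 ± 4.05 in Marco-IBA+ and 5.82 ± 0.556 in Else. Its log2 difference was -0.56 in Des+ minus Marco-IBA+ (adjusted p = 0.0232). The Marco-IBA+ level of Des lies near the floor, since 1 count was worth a median of 8.69 there and 3.72 in Des+. Of the smooth muscle markers 3 of 11 were analysed here, of those of portal fibroblasts 2 of 11, of macrophages 1 of 13, and of endothelial cells, hepatocytes and cholangiocytes 0.

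The 6 genes did not share 1 pattern over the segment types. Flna and Vim were low in Else and several times higher in all 3 stained types. Actn1 was high in both macrophage types and low in Des+ and Else. Myl9 and Ccn2 were higher in Des+ than in Marco+IBA+ and Else, and Actn4 varied least. Differences between types are limma log2 differences over 16 liver means, with liver as a block, and adjusted p is by the Benjamini-Hochberg method over 607 genes. Every test with Des+ segments draws on the Des+ values by which the 6 genes were chosen, so its p-value is not independent of that choice.

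**Figure D1:**
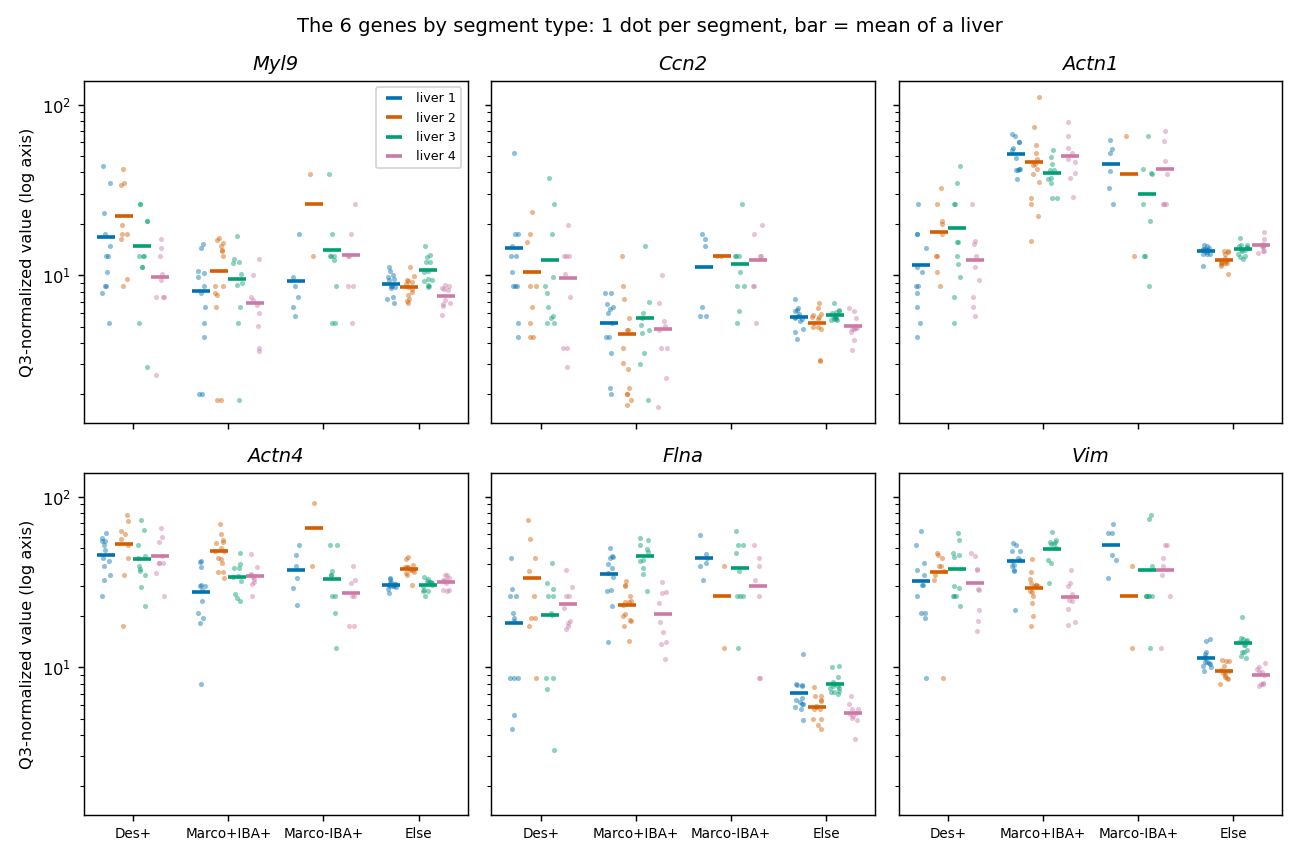
Q3-normalized value (log axis) of each gene by segment type, with 1 dot per segment and a bar for the mean of each liver (4 livers). The Flna and Vim bars of Else lie below those of the other types, the Actn1 bars stand high in Marco+IBA+ and Marco-IBA+, and the Else dots scatter least.

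Between Des+ and Else, 5 of the 6 genes were higher in Des+ and none lower, on a background where 65.9% of all genes passed the test in either direction. Between Des+ and Marco+IBA+, 4 passed (52.7% of all genes): Myl9, Ccn2 and Actn4 were higher in Des+ and Actn1 lower. Between Des+ and Marco-IBA+, Actn1 and Flna were lower in Des+ (46.5% of all genes passed). Between Marco+IBA+ and Else, Actn1, Flna and Vim were higher (40.7%), and between Marco-IBA+ and Else so were these 3 with Myl9 and Ccn2 (74%). Between the macrophage types Myl9 and Ccn2 were lower in Marco+IBA+ (46.1%). Since calls are this common in the table, these counts set the 6 genes apart from nothing, and the sizes carry the description. When the median replaced the upper quartile as each segment's centre, which moved the median of all genes by -0.29 in Des+ minus Else, the 5 higher genes of that contrast became 3: Myl9 and Actn4 no longer passed.

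**Figure D2:**
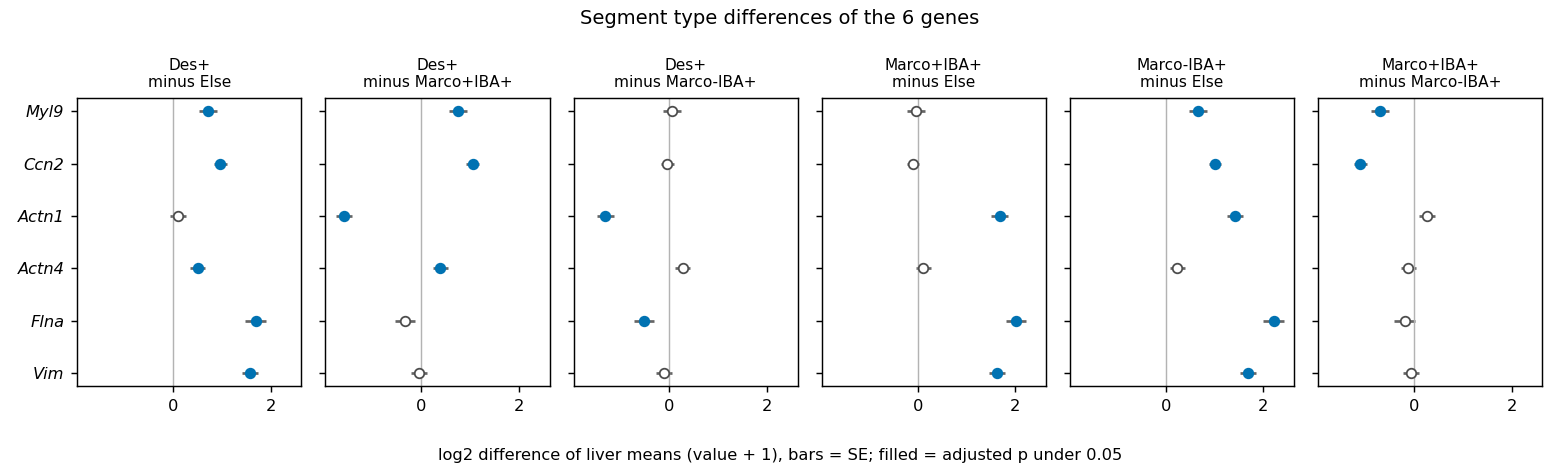
log2 difference of liver means (value + 1) for the 6 genes in each pair of segment types, with bars for the SE of the fit over 4 livers. Filled points passed adjusted p under 0.05: Flna and Vim lie far above 0 only against Else, and Actn1 falls below 0 in Des+ minus either macrophage type.

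Myl9, the myosin light chain, had levels of 16.7, 22.1, 14.9 and 9.80 in the Des+ segments of livers 1 to 4. In Marco+IBA+ segments these were 8.07, 10.5, 9.47 and 6.89, and in Else 8.93, 8.56, 10.7 and 7.56. Des+ was higher than Else in each of the 4 livers, by 1.30 to 2.59 times, although the lowest Des+ liver lay within the range of Else. The log2 difference from Else was 0.72 ± 0.19 (SE, adjusted p = 0.00256) and that from Marco+IBA+ 0.76 ± 0.19 (adjusted p = 0.00233). Both draw on the Des+ values by which Myl9 was chosen. In MarcoLo ROIs alone, an alternative added after seeing the data, Myl9 did not pass against Else (0.07, adjusted p = 0.816) or Marco+IBA+ (0.25, adjusted p = 0.449). Levels in Marco-IBA+ segments were 9.27, 26.1, 14.1 and 13.2, but 14 of these 24 segments held a single Myl9 count. Myl9 in Marco-IBA+ minus Else was 0.66 ± 0.19 (adjusted p = 0.00408). It did not pass on summed counts with edgeR (0.16, adjusted p = 0.644) or DESeq2 (0.22, adjusted p = 0.459), without liver 2 (0.38, adjusted p = 0.0664), which had 2 such segments, or in MarcoLo ROIs alone (0.13, adjusted p = 0.682). Marco+IBA+ minus Marco-IBA+ was -0.70 ± 0.19 (adjusted p = 0.00581). That call too was lost with edgeR (-0.13, adjusted p = 0.806), DESeq2 (-0.23, adjusted p = 0.572) and in MarcoLo ROIs alone (-0.31, adjusted p = 0.414). Tagln, a smooth muscle and contractile marker, was also higher in Des+ segments (26.3 ± 11.3, SD, n = 4) than in Else (7.39 ± 1.21). In Marco-IBA+ segments the 2 genes parted: Tagln was at 15.2 ± 3.72, while Myl9 averaged 15.7 there and 15.9 in Des+. The part of smooth muscle cells in the Myl9 difference was not tested.

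Ccn2, the matricellular factor, stood at 14.5, 10.5, 12.3 and 9.62 in Des+ segments. It stood at 5.24, 4.53, 5.61 and 4.86 in Marco+IBA+ and at 5.67, 5.25, 5.86 and 5.01 in Else. No Des+ liver overlapped with a liver of these other types. Such separation, in either direction, was seen for 61.8% of all genes against Else and for 48.4% against Marco+IBA+. Des+ was 2.13 times Else (geometric mean of 4 livers) and 2.30 times Marco+IBA+, with log2 differences of 0.97 ± 0.13 (adjusted p = 4.04e-06) and 1.06 ± 0.13 (adjusted p = 1.89e-06). The separation and both differences draw on the Des+ values by which Ccn2 was chosen. In MarcoLo ROIs alone the difference from Else was 0.46 (adjusted p = 0.0531). With every value raised to a common floor of 8.69, what 1 count was worth in the median Marco-IBA+ segment, these differences were 0.54 and 0.50 and still passed. Marco-IBA+ levels of 11.1, 13.0, 11.6 and 12.2 were like those of Des+, at 1 count in 15 of 24 segments. With the same floor Marco-IBA+ minus Else went from 1.01 to 0.49 and Marco+IBA+ minus Marco-IBA+ from -1.10 to -0.45, both still past the threshold. In Des+ segments 11 of 41 were also at 1 count of Ccn2, with a median of 2 counts.

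Actn1, the alpha-actinin of stress fibers and adhesions, stood out in macrophage segments. Its levels were 51.2, 45.8, 39.7 and 50.2 in Marco+IBA+ and 44.8, 39.1, 29.7 and 42.1 in Marco-IBA+. In Des+ they were 11.5, 18.0, 19 and 12.3, and in Else 13.8, 12.3, 14.1 and 15.0. No liver of a macrophage type overlapped with one of Des+ or Else. Against Else the same held, in either direction, for 48.1% of all genes in Marco+IBA+ and 59.6% in Marco-IBA+. Against Des+ it held for 48.4% and 27.3%. Marco+IBA+ was 3.37 times Else, a log2 difference of 1.68 ± 0.17 (adjusted p = 2.98e-07), and Des+ minus Marco+IBA+ was -1.58 ± 0.17 (adjusted p = 4.83e-07). Des+ and Else differed by 0.10 ± 0.17 (adjusted p = 0.634), and the macrophage types by 0.27 ± 0.17 (adjusted p = 0.208). Single segments ran from 15.9 to 111 in Marco+IBA+ and from 4.35 to 43.5 in Des+.

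Actn4, the alpha-actinin found widely in nonmuscle cells, had Des+ levels of 45.5, 53.0, 43.3 and 45.1. Else levels were 30.5, 37.8, 30.3 and 31.5. Every Des+ liver was above every Else liver, where 61.8% of all genes showed no overlap in either direction. Des+ stood at 1.40 to 1.49 times the Else level of its own liver. The log2 difference was 0.51 ± 0.15 (adjusted p = 0.00694), or 0.18 (adjusted p = 0.316) after re-centring. Marco+IBA+ levels of 27.6, 48.0, 34.0 and 34.4 overlapped with both, and the difference of 0.39 ± 0.15 from Des+ (adjusted p = 0.0379) no longer passed without liver 1 (0.29), liver 3 (0.41) or liver 4 (0.39). In each of the 4 types liver 2 was highest. Actn4 was the gene of the 6 whose count was least often at 1, in 1 of 24 Marco-IBA+ segments and no other.

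Flna, filamin A, stood at 18.2, 33.4, 20.2 and 23.5 in Des+ and at 35.3, 23.1, 44.8 and 20.4 in Marco+IBA+. In Marco-IBA+ it stood at 43.6, 26.1, 38.0 and 30.1, and in Else at only 7.01, 5.84, 8.02 and 5.39. The 3 stained types overlapped with each other and none overlapped with Else. Of all genes, 61.8% in Des+, 48.1% in Marco+IBA+ and 59.6% in Marco-IBA+ did not overlap with Else either. The log2 difference of Flna from Else was 1.69 ± 0.21 in Des+ (adjusted p = 1.64e-06), 2.02 ± 0.21 in Marco+IBA+ (adjusted p = 3.23e-07) and 2.21 ± 0.21 in Marco-IBA+ (adjusted p = 4.73e-08). Des+ minus Marco-IBA+ was -0.52 ± 0.21 (adjusted p = 0.0495), at the edge of the threshold. It no longer passed without liver 1 (-0.29), liver 3 (-0.40) or liver 4 (-0.58), nor with edgeR (adjusted p = 0.0875) or DESeq2 (adjusted p = 0.168).

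Vim, vimentin, followed Flna. Its levels were 32.0, 36.3, 37.6 and 31.1 in Des+, 42.0, 29.0, 49.6 and 25.9 in Marco+IBA+ and 52.1, 26.1, 37.2 and 37.2 in Marco-IBA+. In Else they were 11.4, 9.50, 13.8 and 9.0, below every liver of the other types, a separation with the shares of all genes given for Flna. The log2 difference from Else was 1.58 ± 0.17 in Des+ (adjusted p = 2.18e-07) and 1.63 ± 0.17 in Marco+IBA+ (adjusted p = 2.98e-07). Des+ differed from Marco+IBA+ by -0.05 ± 0.17 (adjusted p = 0.816) and from Marco-IBA+ by -0.12 ± 0.17 (adjusted p = 0.584).

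Over the 31 means of a liver, ROI class and segment type, Flna and Vim had a Pearson r of 0.93 with each other. After Vim, Flna was most like Epb41l2 (0.91) and Zeb2 (0.90), and after Flna, Vim was most like Anxa2 (0.93) and Tmsb10 (0.90), both actin-linked. Actn1 was most like Tmem86a (0.94), Sdc3 (0.92) and Axl (0.90), and its r with Actn4 was -0.17. Myl9 was most like Prss23, Susd2 and Prkg1 (0.83, 0.83 and 0.81), and Ccn2 most like Art4, Ccl19 and Adamts1 (0.89, 0.87 and 0.86). Actn4 had weaker likeness, 0.73 with Ltbp4 and 0.69 with the collagen IV chain Col4a2. Means of a liver share sections, depth and scaling, so the values are descriptions.

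Of all 607 genes, 228 were higher in Des+ than in Else and 172 lower, and the counts per list below stand beside these. Of 17 listed actomyosin genes analysed here, 9 were higher, 2 lower and 6 did not pass, with a median difference of 0.39 beside 0.08 over all genes. Tagln rose most (1.605 ± 0.20, adjusted p = 1.44e-06), followed by Myl9 and Smtn (0.61), the smooth muscle actin-binding smoothelin. Cnn3, an actin-binding calponin, was among the lower genes (-0.47 ± 0.16, adjusted p = 0.0153). Of 33 crosslinker and adhesion genes 13 were higher, 5 lower and 15 did not pass. Tmsb10, an actin monomer-binding thymosin, and Gsn, the severing protein gelsolin, led with 2.03 and 1.85, ahead of Flna. Marcks (-0.69) and the actin-depolymerizing factors Cfl2 (-0.61) and Dstn (-0.58) were lower. Of 5 intermediate filament and caveola genes, Vim, Ehd2 (1.05) and Cavin1 (0.71) were higher, Lmna (-0.53) was lower and Des did not pass (0.36, adjusted p = 0.111). Of 4 YAP/TAZ and SRF genes Fhl1 (1.44), Ccn2 and Axl (0.71) were higher. All 11 collagen chains were higher in Des+ than in Else, with a median of 1.73.

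Against Else, the genes called in Marco+IBA+ segments matched those called in Des+ only in part, with Flna, Itga9 and Tmsb10 higher in both. Of all 607 genes, 119 were higher in Marco+IBA+ and 128 lower. In Marco+IBA+ minus Else, 10 of the 33 crosslinker and adhesion genes were higher, 5 lower and 18 did not pass, with Flna, Actn1 and the integrin Itga9 (1.59) leading and Cfl2 (-0.69) lowest. Of the actomyosin list, 4 genes were higher, 3 lower and 10 did not pass. Rhob (1.07) and Myl12a (0.83), a small GTPase and a nonmuscle myosin light chain, were highest, and Myl9 differed by -0.04 ± 0.19 (adjusted p = 0.903). Axl, a receptor tyrosine kinase of phagocytes that was listed as a YAP target, was at 94.1 ± 4.37 in Marco+IBA+ segments and 9.06 ± 1.40 in Else (SD, n = 4). Of the 11 collagen chains, 2 were higher and 9 did not pass. In Marco-IBA+ minus Else all 11 chains were higher, as in Des+. There 7 of the 17 actomyosin genes were higher, Tagln, Smtn and Myl9 among them, 3 lower, and 7 did not pass. Of all 607 genes, 318 were higher in Marco-IBA+ than in Else and 131 lower.

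The choice of the 6 genes rests on MarcoHi against MarcoLo ROIs within Des+ segments, so the values of that contrast are given without a test. Myl9 was higher in MarcoHi in each of the 4 livers, with mean levels of 23.7, 25.6, 18.7 and 10.7 against 9.71, 15.1, 8.08 and 8.07. Ccn2 was too, with 19.9, 12.3, 15.2 and 10.4 against 9.13, 6.81, 7.25 and 8.07. The log2 differences averaged 0.85 ± 0.39 for Myl9 and 0.78 ± 0.32 for Ccn2 (SD, n = 4 livers), and liver 4 had the smallest of both (0.36 and 0.33).

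The other 4 genes were mixed. Flna was higher in MarcoHi in 3 of 4 livers (0.47 ± 0.47) and Actn1 in 3 of 4 (0.32 ± 0.60), with liver 3 the exception for Flna and liver 2 for Actn1. Actn4 averaged 0.02 ± 0.24 and Vim -0.21 ± 0.40, each higher in 2 livers and lower in 2. Thus 2 of the 6 genes were higher in all 4 livers and none lower in all 4, where 9.56% of all genes were higher in every liver and 12.9% lower in every liver.

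Of the 11 collagen chains, 6 were lower in MarcoHi in every liver and none higher. Col3a1, a fibrillar collagen, was at a mean level of 148 in MarcoLo and 66.6 in MarcoHi, a log2 difference of -1.17 ± 0.86. Liver 2 had the smallest differences of Col3a1 (-0.10) and Col14a1 (-0.007), both close to none. Col1a2 averaged -0.90 ± 0.58 and Col6a1, of the beaded collagen VI, -0.75 ± 0.11. Col1a1 was lower in 3 livers (-0.86 ± 0.75), and the basement membrane chain Col4a2 was higher in 3 (0.18 ± 0.29). Among listed genes other than the 6, Myh9 and Rock2 of the 16 actomyosin genes were higher in all 4 livers and none lower. Of 30 crosslinker or adhesion genes none was higher in all 4, and Dstn and Itga1 were lower. Beside these counts, 9.56% of all genes were higher and 12.9% lower in every liver.

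**Figure D3:**
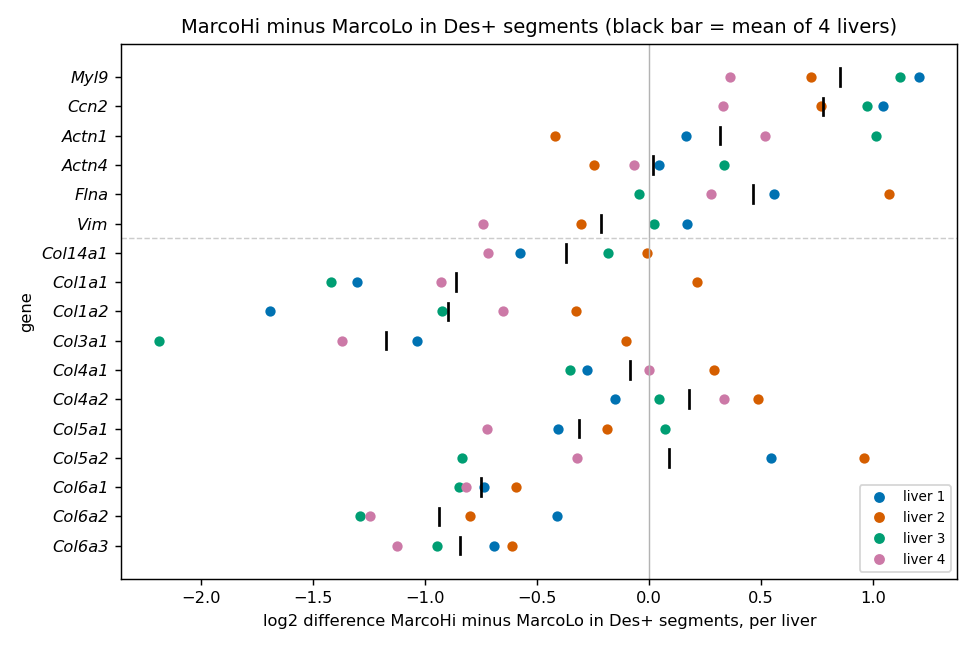
log2 difference of MarcoHi minus MarcoLo in Des+ segments for the 6 genes (above the dashed line) and 11 collagen chains, with 1 dot per liver and a black bar for the mean of 4 livers. All dots of Myl9 and Ccn2 lie above 0, and all those of Col1a2, Col3a1, Col6a1, Col6a2, Col6a3 and Col14a1 below 0.

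Several measures moved with that contrast. Des+ segments of MarcoHi ROIs were shallower in every liver, with median totals of 2350, 2628, 2733 and 4975 counts against 2873, 6637, 5146 and 7258. As a share of all recovered counts, Myl9 was higher in MarcoHi in each liver, at 15.4, 21.6, 13.3 and 7.61 per 10000 counts against 6.80, 8.99, 6.08 and 5.73. Since no count was below 1, a share also depends on depth. For Ccn2 the shares were 12.9, 10.2, 11.8 and 7.90 against 6.80, 4.31, 5.15 and 6.25. They rest on 17 to 27 Ccn2 counts per liver in MarcoHi and 11 to 13 in MarcoLo. The 12 stellate cell markers summed to 307 to 389 in MarcoHi and 453 to 544 in MarcoLo, and 8 of them were lower in every liver. The 3 smooth muscle markers (Tagln, Smtn, Des) summed to 33.7 to 66.6 against 31.4 to 42.8. They did not move together: none was higher in every liver, Des was lower in every liver, and their median log2 difference was -0.09. Marco ran from 8.84 to 34.1 against 4.71 to 11.8. The parts of depth and of cell mixture in the differences were not tested.

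Outside Des+ segments limma called no gene of the 6 between MarcoHi and MarcoLo. In Marco+IBA+ segments 0.988% of all genes passed. Actn1 came nearest, with levels of 56.7, 53.6, 42.5 and 55.2 in MarcoHi and 47.2, 35.4, 35.5 and 32.9 in MarcoLo. It was higher in 4 of 4 livers, by 0.46 ± 0.13 (adjusted p = 0.296), and only edgeR on summed counts called it. Myl9 and Ccn2 differed there by 0.05 ± 0.22 (adjusted p = 0.926) and 0.29 ± 0.16 (adjusted p = 0.516). In Else, where counts are deepest and 1.65% of all genes passed, Myl9 differed by -0.11 ± 0.05 (adjusted p = 0.254), Ccn2 by 0.01 ± 0.04 (adjusted p = 0.925) and Vim by -0.11 ± 0.04 (adjusted p = 0.201). In Marco-IBA+ segments 3 livers had both classes, and limma called 0% of all genes, with 78 at an unadjusted p under 0.05 and 1 called by edgeR and 0 by DESeq2. Myl9 was at 1.11 ± 0.31 and Ccn2 at 0.86 ± 0.31 (adjusted p = 0.378 for both), at 1 or few counts per segment. The median over all genes was 0.26 there. MarcoHi segments were shallower, with a median total of 1256 counts against 2351 in MarcoLo, so 1 count was worth more in MarcoHi. The part of depth was not tested.

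Between the livers labelled treated CCl4 and those labelled control, limma called no gene of the 6 in any segment type, with 2 livers a side. On summed counts edgeR and DESeq2 both called Flna (0.91 with each) and Vim (0.73 with each) in Marco+IBA+, and DESeq2 called Actn4 (-0.29), Flna (0.30) and Vim (0.35) in Else. In Des+ segments 0% of all genes passed (45 at an unadjusted p under 0.05, 1 by edgeR, 0 by DESeq2), in Else 0% (9 unadjusted, 0 by edgeR, 114 by DESeq2), in Marco+IBA+ 0.329% and in Marco-IBA+ 0.824%. Flna came nearest. In Marco+IBA+ its levels of 35.3 and 44.8 in livers 1 and 3 lay above 23.1 and 20.4 in livers 2 and 4, a log2 difference of 0.84 ± 0.20 (adjusted p = 0.0892). In Des+ the order was opposite, 18.2 and 20.2 against 33.4 and 23.5 (-0.52 ± 0.20, adjusted p = 0.628). Vim differed in Marco+IBA+ by 0.71 ± 0.22 (adjusted p = 0.338), with 42.0 and 49.6 against 29.0 and 25.9. In Des+ it differed by 0.04 ± 0.22 (adjusted p = 0.978).

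**Figure D4:**
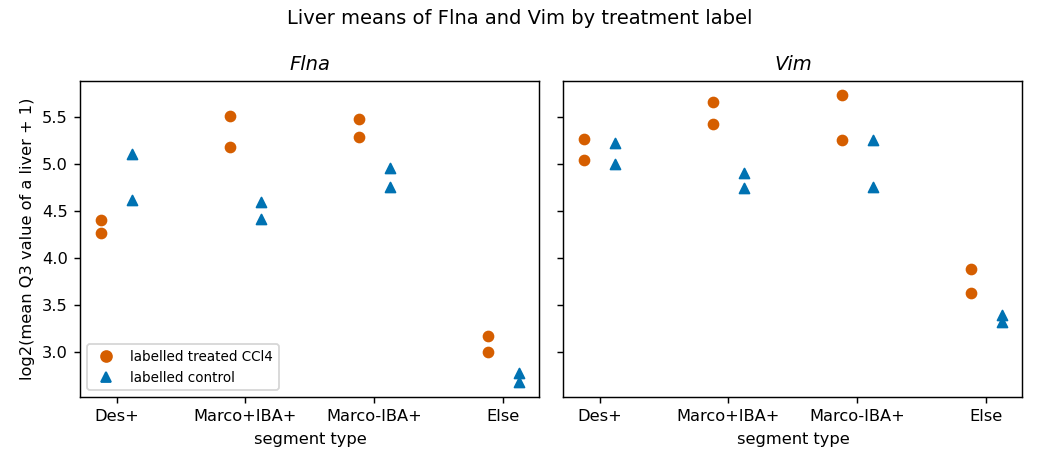
log2(mean Q3 value of a liver + 1) of Flna and Vim by segment type, with 1 point per liver, circles for livers labelled treated CCl4 and triangles for livers labelled control. The circles of both genes lie above the triangles in Marco+IBA+ segments, and the circles of Flna lie below the triangles in Des+ segments.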

How the data were processed

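GeoMx Whole Transcriptome Atlas probes were read from segments of 4 livers. The authors removed duplicate reads by molecular identifiers, filtered segments and probes, kept stellate cell genes and deposited upper-quartile (Q3) normalized signal values. The build named in the labels is mm10 and the conversion tool bcl2fastq 2.20.0.422. All 96513 values were whole multiples of a step per segment (relative tolerance 1e-06), and counts were recovered by that division. Values were averaged per liver and segment type, or ROI class, as log2(mean + 1). limma 3.58.1 was fitted with liver as a block, or for the labels with duplicateCorrelation (0.135), with a threshold of 0.05. edgeR 4.0.16, DESeq2 1.42.0, lme4 1.1.37 and lmerTest 3.1.3 in R 4.3.3 were alternatives, beside other pseudocounts, scalings, summaries and left-out livers. The methods were tested on simulated data. Segments of an animal are not replicates and the liver is the unit. The 6 genes and all lists were chosen with earlier results of these data known. Further genes were named as the 3 highest and 3 lowest past the threshold per list with 1 sign in every liver, and as the 3 most alike by Pearson r. Tagln, Des and Marco were given as markers. Myh9, Rock2, Dstn and Itga1 were named after their values were seen where a count was small. Segments with 1 number within a liver and class come from the same ROI, and a fit with the ROI as a block was an alternative. Some genes that these rules name are not reported here.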

Additional observations from a re-analysis of the deposited data

Results flagged for a closer look

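The difference of Flna between Des+ and Marco+IBA+ segments depended on the treatment label: the limma interaction term was -1.37 ± 0.27 on the log2 scale (SE, adjusted p = 0.0239), with 4 of 4 livers on the side of their label. It was -1.46, -1.21, -1.27 and -1.52 without livers 1 to 4, and past the threshold in none of these fits. Of the other 41 interaction tests on the 6 genes none passed.

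Single segments that lay far from the rest of their group were found for 8 of 144 groups of 4 to 10 segments tested. Chance marks about 1 in 20 such groups, so this is near the number that chance gives. Vim was low at 8.69 in 1 Des+ segment of liver 1 MarcoHi (others 30.4 to 52.1) and at 8.69 in 1 of liver 2 MarcoHi (others 34.8 to 43.5). It was high at 14.6 in 1 Else segment of liver 1 MarcoHi and at 19.8 in 1 of liver 3 MarcoLo. Flna was low at 14.0 in 1 Marco+IBA+ segment of liver 1 MarcoHi (others 37.9 to 50.0). Myl9 was high at 39.1 in 1 Marco-IBA+ segment of liver 3 MarcoHi, Ccn2 low at 4.23 in 1 Else segment of liver 1 MarcoHi, and Actn1 low at 11.3 in 1 of liver 1 MarcoLo.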

How the results depend on the processing

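None of the values of single genes that passed reversed direction in any alternative. Of 258 counts of the 6 genes past the threshold, 235 stayed within 1.5 times. The 235 include main counts of 0 that stayed 0, in the ROI class and label contrasts. They also do not compare which genes were called, so they are no measure of stability. In Des+ minus Else the 5 genes became 3 after re-centring on the median and 3 in MarcoLo ROIs alone, and the cause was not tested. In Des+ minus Marco-IBA+ the 2 became 1 with a pseudocount of 0, the share of total counts, a common floor, the ROI without a class left out, no liver block and MarcoHi ROIs alone, and 1 to 3 with a liver left out (1 without livers 1, 3 and 4). With the ROI as a block, pairing the segments of an ROI, the counts became 1 in Des+ minus Marco-IBA+ and 1 in Marco+IBA+ minus Marco-IBA+, and no other count of the 6 genes moved by over 1.5 times. In Marco+IBA+ minus Marco-IBA+ the 2 also became 1 without genes of mean value under 10, with DESeq2 and in MarcoLo ROIs alone. Between MarcoHi and MarcoLo in Marco+IBA+ segments edgeR called 1. For the labels, where the main count was 0, edgeR and DESeq2 called 2 and single segments 3 in Marco+IBA+, leaving out liver 4 gave 2 in Marco-IBA+ (0 to 2 over livers left out), and in Else DESeq2 called 3 and single segments 2. The 2 genes higher in MarcoHi in every liver in Des+ segments became 1 when genes of mean value under 10 were left out, since Ccn2 was then not in the table. The single interaction called became 2 with the mean of log2 values and without the ROI that had no class, 3 with DESeq2 and single segments, 0 with medians, and 0 to 1 with a liver left out, where the 1 (without liver 4) was another test than Flna in Des+ minus Marco+IBA+. Counts over all genes beyond 1.5 times were, for Marco+IBA+ minus Marco-IBA+ (280), 63 in MarcoLo ROIs, 89 with DESeq2 and 128 with the ROI block, for Des+ minus Marco-IBA+ (282) 151 with the ROI block and 120 in MarcoHi ROIs, for Marco+IBA+ minus Else (247) 389 with edgeR and 384 with the ROI block, for MarcoHi minus MarcoLo 1 to 33 in Marco+IBA+ (6), 0 to 3 in Marco-IBA+ (0) and 0 to 83 in Else (10), and for the labels 0 to 1 in Des+ (0), 0 to 39 in Marco+IBA+ (2), 0 to 88 in Marco-IBA+ (5) and 0 to 114 in Else (0). The mixed model was not run for the interactions. Depth limits Ccn2 most in Des+ segments, at a median of 2 counts, followed by Myl9 and Actn1 at 4. With edgeR and DESeq2 the 2 genes called in Des+ minus Marco-IBA+ were Actn1 and Actn4 (0.57 and 0.50), not Flna, and with edgeR those in Marco+IBA+ minus Marco-IBA+ were Actn1 and Ccn2, not Myl9.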
